A study of Mus musculus with 14 samples.

Results

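Macrophages sorted from leukemic bone marrow were compared between mice whose acute myeloid leukemia (AML) cells secreted interleukin 4 (IL4) and mice whose AML cells carried an empty control vector. The comparison took 6 of the 14 libraries of the series, 3 per group, and all 9474 genes of their table. All mice were C57BL/6J, and the F4/80-positive cells were sorted from the marrow 12 days after the AML cells were given. What both groups shared was therefore leukemia itself, and neither group was free of it. The source of IL4 was an IL4 cDNA in the leukemic cells. The labels do not name the AML line, and the design text calls the control cells wild type where the protocol gives them a vector. The labels do not say whether each library came from its own mouse or from pooled mice, so every p-value here measures the spread between these libraries, which may be technical. The other 8 libraries, used only where the marrow response was set beside a culture response, were macrophages grown from bone marrow monocytes for 7 days with the macrophage growth factor CSF1, 4 with 20 ng/mL murine IL4 and 4 without it. The study as a whole asked how IL4 affects the engulfment of leukemia cells by macrophages and the protective surface protein CD47.

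IL4 binds a receptor whose common form joins IL4RA to the shared gamma chain, and its Janus kinases phosphorylate the transcription factor STAT6. STAT6 then switches on the program called alternative activation, known in mouse macrophages for the arginine-degrading enzyme ARG1, the secreted proteins RELMalpha (Retnla) and YM1 (Chil3), and the mannose receptor MRC1. Marrow macrophages are known for clearing dying cells, for taking up the nuclei that maturing red cells expel, and for recycling iron.

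In the F4/80-positive cells of mice with IL4-secreting leukemia, most of the measured products of alternative activation were higher, and Retnla had 0 recovered reads in every control and 4993 over the IL4 libraries. Complement C1q, the engulfment receptors Mertk and Axl, the growth factors Csf1, Hgf and Igf1 and the genes of the ATF4 amino acid stress response were higher too. Most measured monocyte markers and genes of mitosis and DNA replication fell. So did most genes of a heme synthesis list that was made after its values were seen. In the lists of sterol and fatty acid synthesis and of immediate early and heat shock genes 13 of 37 and 10 of 30 fell. These were 35.1% and 33.3%, against 11.5% of all genes. The sterol list had 8 falls without control replicate 2 or 3, and 3 immediate early and heat shock genes rose after centring. Cd47 was modestly higher and its receptor Sirpa did not pass the test.

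The deposited values are log2 levels. In each library they step like whole reads, so reads could be recovered for 9421 of the genes (99.4%). Levels below are recovered reads multiplied by a factor per library (0.785 to 1.19), called scaled reads, in the order of libraries 1, 2 and 3, and for the other 53 genes the deposited log2 levels. The control libraries held 608686 to 652572 recovered reads and the IL4 libraries 512205 to 774082, with medians of 26 to 39 reads per gene, so the libraries were shallow. Differences are log2, IL4-secreting minus control leukemia, and ± gives their standard error. Levels are not compared between genes, near-identical copies (as of Mgl2 and Clec10a, Hspa1b, H2 and Ms4a genes) may share reads, and since the use of strand is not stated, so may overlapping antisense genes. Correlations across genes were 0.9626 to 0.972 within groups and 0.916 to 0.9234 between groups, and no library stood apart from its group.

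The macrophage markers Emr1 and Csf1r were read in all 6 libraries but did not move together. Mertk, also a macrophage marker, was read in only 1 control, as given below. Emr1, the gene of F4/80, had 28.2, 65.1 and 36.5 scaled reads in the controls and 42, 88.1 and 98.9 in the IL4 libraries, and the groups overlapped (log2 difference 0.81 ± 0.36, limma adjusted p = 0.153). It passed without IL4 replicate 1, with the replicate block and with weights from the recovered reads (adjusted p = 0.0352, 0.024 and 0.0161). Csf1r, the CSF1 receptor, was lower (228, 304 and 259 against 73.7, 124 and 172, -1.17 ± 0.28, adjusted p = 0.0193), a call lost without control replicate 2 or 3 and without the variance trend (adjusted p = 0.0705, 0.0578 and 0.0554). Genes known from other cells were also read. The 19 macrophage identity genes with recovered reads summed to 1162 to 1350 scaled reads without and 899.6 to 1043 with IL4 secretion. That sum leaves out Lyz2 and Mpeg1, among others, whose reads were not recovered. Since levels are not compared between genes, the share of neutrophils among the sorted cells was not tested. S100a8 and S100a9, genes of neutrophils and monocytes, took 3.61% to 5.04% of the recovered reads. The 9 measured neutrophil and granule markers summed to 39156 to 45618 scaled reads without and 29536 to 36571 with IL4 secretion. Of those 9, 1 fell (Ngp, -0.89, a call lost without IL4 replicate 3, without control replicate 1 and with the spread shared with the culture libraries), and 6 fell with weights from the recovered reads. In RNA from bulk sorted cells, fewer cells of a type and less RNA per cell cannot be told apart.

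**Figure D1:**
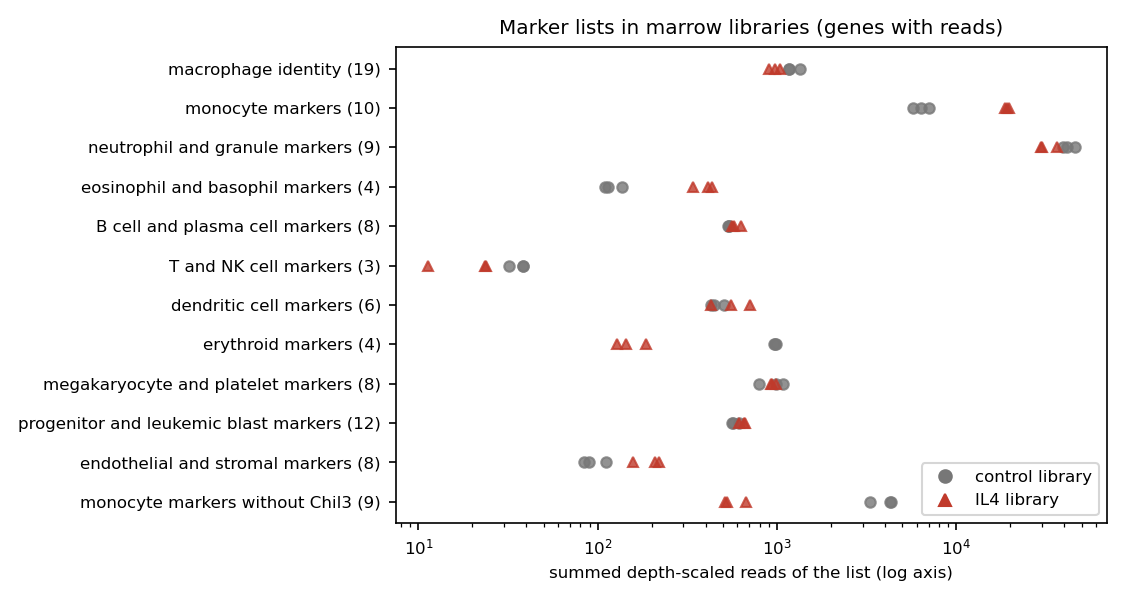
Summed scaled reads (log axis) of each marker list in each marrow library, with circles for the 3 control and triangles for the 3 IL4 libraries and the number of genes with reads in brackets. Erythroid markers lay between 963.8 and 991.4 in the controls and between 128.2 and 186.0 in the IL4 libraries, while B cell and plasma cell markers lay between 529.2 and 541.6 and between 561.7 and 631.8.

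Of the 9474 genes, 635 rose (6.70%) and 1086 fell (11.5%) at a limma adjusted p below 0.05, and 316 of the rises and 647 of the falls were at least 2-fold. The median log2 difference over all genes was -0.06, and centring each library on its median moved it to 0.04. Rises made up 36.9% of the calls as fitted, 51.4% after centring and 47.6% after quantile normalization, so the balance of rises and falls depended on the scaling. No overlap between the groups was seen for 1469 genes that were higher in all IL4 libraries (15.5%) and 2091 that were lower (22.1%). Lack of overlap was required of genes named for the largest differences or the smallest p, so for them it adds nothing. The counts of each list below stand against the 6.70% and 11.5% of all genes. Counts of 5 or fewer genes in a list often moved by 1 to 3 genes when a library was left out. In every alternative that kept all genes, 278 rises and 453 falls were called, and the genes named below belong to these unless stated. Where a gene had 0 reads in a group, the fold is a lower bound against a floor of 3 reads over the group, and where it had 1 to 3 reads the ratio is given with its exact 95% interval. Both cover counting error only, since the reads carry no molecular identifiers.

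**Figure D2:**
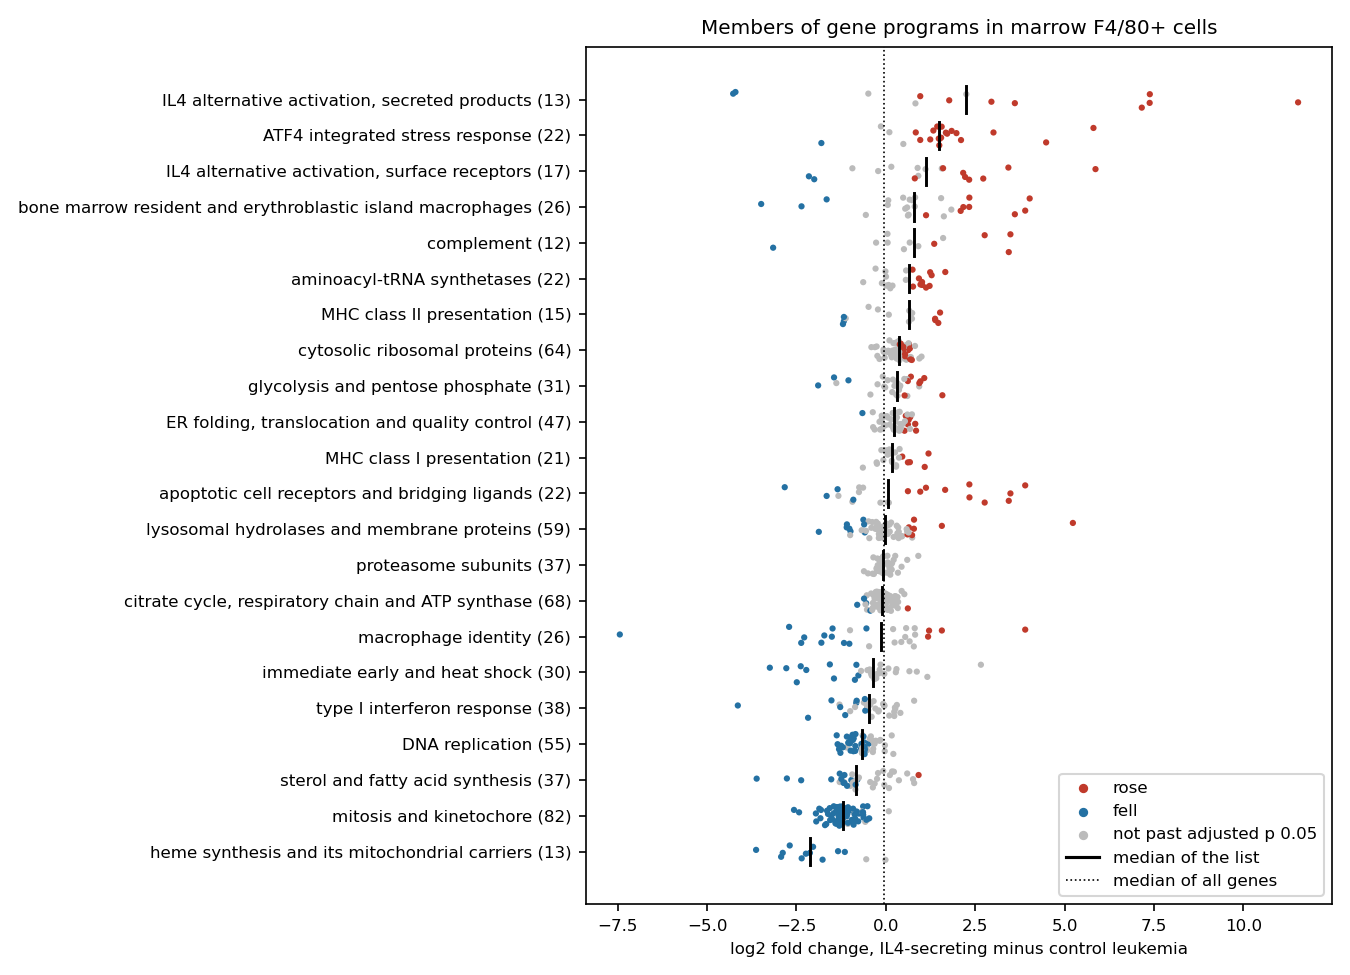
Log2 difference, IL4-secreting minus control leukemia, of each measured member of 22 gene lists, with rises, falls and genes not past an adjusted p of 0.05 in separate colours, the median of each list as a bar and the median of all genes as a dotted line. The medians run from 2.25 for the secreted products of alternative activation to -2.12 for heme synthesis, a list made after its values were seen.

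Among the secreted products of alternative activation, 13 were measured, of which 8 rose and 2 fell, with a median log2 difference of 2.25. Retnla (RELMalpha, a small cysteine-rich protein of type 2 responses, chr16:48842551-48844461, mm10) had 0, 0 and 0 scaled reads in the controls against 1015, 1263 and 2384 with IL4, a rise of at least 1700-fold (adjusted p = 2.37e-07). Chil3 (YM1, a chitinase-like lectin, chr3:106147554-106167564) was already abundant in the controls, with 2441, 2742 and 2066 scaled reads, and reached 18136, 18710.3 and 18998 with IL4 (2.95 ± 0.14, or 7.75-fold, adjusted p = 7.09e-06). The 3 IL4 libraries were thus close to each other for Chil3 and far above every control. Arg1, which splits arginine into ornithine and urea, had 0, 1 and 1.87 against 107, 201 and 381 scaled reads, a ratio of 255 (86.9 to 1239, adjusted p = 0.000217), and its fitted log2 difference of 7.38 became 6.75 without control replicate 1. Among the IL4 libraries, replicate 3 had the highest Retnla and Arg1 and replicate 1 the lowest, and both genes were far above the controls in each.

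The promoters of the pair of YM1 and RELMalpha genes are shown because STAT proteins bind palindromes of TTC and GAA, with a spacer of 4 bases (TTCNNNNGAA) preferred by STAT6 and of 3 bases (TTCNNNGAA) by other STATs. The sequences are from RefSeq (GRCm38.p6), run 5′ to 3′ on the gene's strand, and have the palindrome in capitals. The Retnla stretch (chr16:48842359-48842550, plus strand) runs from 250 to 59 bases before the start and the match TTCACAAGAA begins 145 bases before it. The Chil3 stretch (chr3:106167565-106167814, minus strand) covers the 250 bases before the start, and its match TTCTTAGAA begins 172 bases before it.
Retnla: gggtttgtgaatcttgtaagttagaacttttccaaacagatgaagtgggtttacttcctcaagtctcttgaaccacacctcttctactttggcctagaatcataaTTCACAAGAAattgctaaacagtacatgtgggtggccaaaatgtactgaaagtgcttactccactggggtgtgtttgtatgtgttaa
Chil3: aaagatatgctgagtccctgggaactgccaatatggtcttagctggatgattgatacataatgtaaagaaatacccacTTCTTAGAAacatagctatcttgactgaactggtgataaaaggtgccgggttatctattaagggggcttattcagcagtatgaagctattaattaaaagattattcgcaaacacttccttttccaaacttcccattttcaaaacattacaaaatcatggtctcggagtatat
Searched on both strands of the 250 bases before the start, TTCNNNNGAA was in 432 of 9365 promoters of the table's genes (4.61%) and TTCNNNGAA in 536 (5.72%). Of the 11 promoters of this list that could be matched, 1 (Retnla) held the former and 1 (Chil3) the latter. Of the 18 promoters of the surface receptor list, 4 held TTCNNNNGAA (22.2%), those of Clec7a, Itgax and Pdcd1lg2. Of these 3, Clec7a and Itgax did not pass the test. A match describes the letters and not binding.

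Other secreted products that rose included Rnase2a, an eosinophil-associated ribonuclease (0, 0 and 0 against 30.6, 136 and 128 scaled reads, at least 104-fold, adjusted p = 7.97e-05), and Ccl24, a chemoattractant for eosinophils (0, 0 and 0 against 52.2, 108 and 59.6, at least 72.5-fold, adjusted p = 0.000111). Igf1, insulin-like growth factor 1, rose from 2.01, 3 and 0.937 to 18.2, 45.2 and 25.9 (3.61 ± 0.41). Ear2, another eosinophil-associated ribonuclease, rose from 38.2, 57.1 and 45.9 to 91.9, 209 and 213 (1.77 ± 0.31), a call lost when the spread was shared with the culture libraries (adjusted p = 0.0699). Rnase2a and Ear2 belong to a family of near-identical genes, so reads may be split among its members. The members of the list that fell were fibronectin (Fn1) and the clotting factor subunit F13a1. Fn1 (chr1:71585520-71653200) dropped from 1718, 2243 and 2537 to 78.3, 90.4 and 217 scaled reads (-4.20 ± 0.34, adjusted p = 0.000122) and F13a1 from 475, 628 and 625 to 28.4, 15.5 and 55.7 (-4.27 ± 0.39). Both are also transcribed by inflammatory monocytes.

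Because the list holds products of eosinophils, the 4 measured eosinophil and basophil markers (Ccr3, Prg2, Ear2 and Gata2) stand beside it. They summed to 109.7 to 137.1 scaled reads in the controls and 340.3 to 432.5 with IL4, and 3 of the 4 rose. Gata2, a transcription factor of mast cells, basophils and progenitors, went from 29.2, 31 and 18.7 to 107, 113 and 112 (2.08 ± 0.18). Prg2, the granule major basic protein, went from 41.2, 49.1 and 46.9 to 138, 84.5 and 104 (1.22 ± 0.20, a call lost with the shared spread), and Ccr3 had 1.01, 0 and 2.81 against 3.4, 5.95 and 3.92 (adjusted p = 0.139). The part of such cells in the rises of Rnase2a, Ear2 and Ccl24 was not tested. Epx and Siglecf were not analysed here.

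Surface receptors of alternative activation had 17 measured members, of which 8 rose and 2 fell (median 1.11). Mgl2, a galactose-binding lectin of macrophages and dendritic cells, rose from 6.04, 1 and 3.75 to 149, 255 and 215 (5.87 ± 0.48, 5.26 without control replicate 2). Mrc1, the mannose receptor CD206, rose from 12.1, 10 and 8.43 to 60.1, 120.2 and 200.1 (3.43 ± 0.38, adjusted p = 0.000488). Every IL4 library exceeded every control for both lectins, and IL4 replicate 1 was the lowest of its group. Smaller rises were seen for the haptoglobin-hemoglobin receptor Cd163 (2.33 ± 0.27), the inhibitory receptor Cd200r1 (1.60 ± 0.15), the PD-1 ligands Pdcd1lg2 (2.22 ± 0.31) and Cd274 (2.16 ± 0.47), and the kinase Matk (2.73 ± 0.20). Clec10a, which resembles Mgl2, had 10.1, 15 and 3.75 against 12.5, 26.2 and 51 and did not pass (adjusted p = 0.0764). The members that fell were the scavenger receptor Msr1 (20.1, 24 and 31.9 against 5.67, 3.57 and 9.42, adjusted p = 0.00238) and the transferrin receptor Tfrc (-2.15 ± 0.14). Cd274 and Clec10a, unlike the others, were named after their values were seen.

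**Figure D3:**
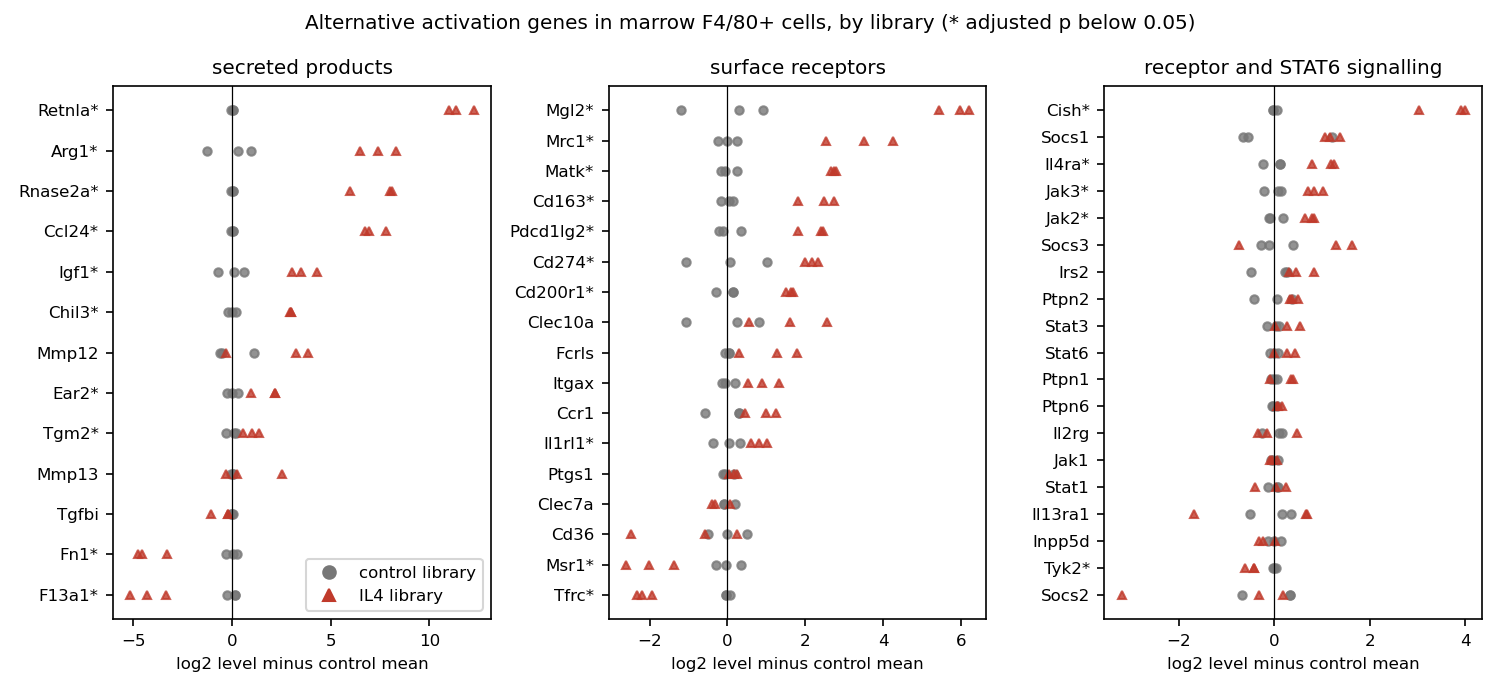
Log2 level of each library minus the control mean for 13 secreted products, 17 surface receptors and 19 genes of IL4 receptor and STAT6 signalling, with circles for control and triangles for IL4 libraries and a star for an adjusted p below 0.05. All 3 IL4 libraries lie to the right of every control for Retnla, Arg1, Mgl2, Mrc1 and Cish, and to the left for Fn1 and F13a1.

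In the IL4 receptor and STAT6 signalling list, 4 of 19 rose and 1 fell (median 0.24). Cish, a feedback inhibitor of cytokine receptors that STAT proteins induce, rose from 7.04, 7.01 and 7.5 to 62.4, 121 and 115 scaled reads (3.64 ± 0.24, adjusted p = 4.59e-05). Il4ra, the ligand-binding chain, rose from 62.4, 62.1 and 48.7 to 130.5, 100 and 137 (1.07 ± 0.18, adjusted p = 0.00344) and the kinase Jak2 from 118, 97.1 and 94.6 to 160.0, 178 and 184 (0.76 ± 0.14). The IL4 libraries lay above all controls for these 3 genes. Jak3, the kinase of the gamma chain, also rose (0.85), and the kinase Tyk2 fell (-0.48), but Jak3 lost the call without IL4 replicate 3 or control replicate 1 and with the spread shared with the culture libraries, and Tyk2 lost it without any 1 of the 6 libraries and after centring (adjusted p = 0.0983). Stat6 itself had 190.1, 178 and 201 against 255, 190.4 and 228 with overlapping groups (0.24 ± 0.15, adjusted p = 0.306). The remaining receptor chains did not pass, with -0.01 for the gamma chain Il2rg and -0.11 for Il13ra1, both named after their values were seen. Il4 was not analysed here.

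Transcription factors linked to alternative activation were split, with 4 of 14 higher and 3 lower (median 0.64). Pparg, a lipid-sensing nuclear receptor, had 0, 1 and 0 against 10.2, 13.1 and 14.1 scaled reads, a ratio of 38.8 (6.56 to 1573, adjusted p = 0.001). Bhlhe40, a repressor that supports macrophage proliferation in type 2 responses, rose from 25.2, 14 and 29.1 to 78.3, 95.2 and 112 (2.09 ± 0.27), and Myc, the growth regulator, from 40.2, 21 and 38.4 to 68.1, 78.5 and 71.4 (1.17 ± 0.24). Irf4, which acts downstream of STAT6 in cultured macrophages, fell from 53.3, 55.1 and 56.2 to 14.7, 22.6 and 18.8 (-1.54 ± 0.18), together with Klf4 (-1.45 ± 0.16) and Cebpb (-1.80 ± 0.28). The groups did not overlap for these 6 factors. The largest falls in the wider list of myeloid factors, of which 4 of 51 rose and 16 fell, were those of Bach2 (65.4, 53.1 and 62.8 against 1.13, 5.95 and 1.57, -4.44 ± 0.45, -5.05 without IL4 replicate 2) and Id3 (7.04, 7.01 and 2.81 against 0, 0 and 0, at least 5.55-fold lower). Irf8, needed for monocyte and dendritic cell development, fell from 139.8, 196 and 139.6 to 26.1, 55.9 and 26.7 (-2.19 ± 0.28), along with Mef2c (-2.18 ± 0.25), Nr4a1 (-2.22 ± 0.31) and Zeb2 (-1.72 ± 0.19). Tfec, a factor of the macrophage lineage, rose (1.81 ± 0.38).

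Genes of arginine transport rose with Arg1. Slc7a2, the cationic amino acid transporter that brings in arginine, had 0, 0 and 1.87 against 56.7, 108 and 188 scaled reads, a ratio of 194 (53.4 to 1608, adjusted p = 0.000227), and a fitted log2 difference of 6.97 that was 7.72 without control replicate 3. Its relative Slc7a1 rose as well (0.91 ± 0.14, adjusted p = 0.0502 with the shared spread). Further along the polyamine route, the spermine oxidase Smox fell from 72.4, 82.1 and 75 to 17, 8.33 and 18.8 (-2.41 ± 0.26). Ornithine decarboxylase, Odc1, which makes polyamines from ornithine, fell too (-0.91 ± 0.21), but that call was lost without control replicate 1 or 3 and with the shared spread. The whole list of arginine and polyamine genes had 12 measured members, of which 4 rose and 3 fell. The falls numbered 1 without control replicate 1 or 3.

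Complement C1q, which opsonizes dying cells, was higher in each of its subunits. C1qa had 6.04, 5 and 7.5 scaled reads in the controls and 25, 47.6 and 73 with IL4, C1qb had 5.03, 4 and 4.68 and 35.2, 52.4 and 86.3, and C1qc had 8.05, 2 and 4.68 and 31.8, 52.4 and 90.3. The log2 differences were 2.77 ± 0.39, 3.44 ± 0.33 and 3.49 ± 0.48 (adjusted p = 0.00162, 0.000255 and 0.00151), and in all 3 genes IL4 replicate 3 was the highest and replicate 1 the lowest of the IL4 libraries, which lay above every control. Complement C3 rose from 1147, 1250.3 and 1069 to 2888, 3137 and 2833 (1.35 ± 0.12). Of 12 measured complement genes 4 rose and 1 fell.

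Receptors and bridging ligands for apoptotic cells had 22 measured members, of which 10 rose and 4 fell, 3 of the rises being the C1q genes. Mertk, a receptor kinase that binds dying cells through bridging proteins, had 3.02, 0 and 0 against 11.3, 11.9 and 18.1 scaled reads, a ratio of 14.6 (4.69 to 73.8, adjusted p = 0.00479). Its fitted log2 difference was 3.90, and 4.85 without control replicate 1, the only control with Mertk reads, and all IL4 libraries were above it. Axl, a related kinase named after its values were seen, rose from 8.05, 8.01 and 17.8 to 29.5, 72.6 and 77.7 (2.34 ± 0.45), and the integrin subunit Itgb3 from 73.4, 60.1 and 49.7 to 166, 227 and 187 (1.66 ± 0.18). Lrp1, a receptor for calreticulin on dying cells, fell from 258, 410.4 and 295 to 30.6, 47.6 and 58.1 (-2.83 ± 0.27), as did the lipoprotein receptor Scarb1 (-0.91 ± 0.17). Abca1, a lipid exporter that also acts in engulfment, rose from 4.02, 8.01 and 4.68 to 44.2, 13.1 and 39.2 (2.31 ± 0.48). The rest of the engulfment machinery was mostly not past the test, with 2 of 24 genes higher and 1 lower. Rises in the receptor list numbered 6 without control replicate 1, and falls 2 without IL4 replicate 3, control replicate 2 or control replicate 3.

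Fc receptors, which bind antibody on target cells, moved in opposite directions. Fcgr2b, the inhibitory receptor, had log2 levels of 10.74, 11.05 and 10.66 in the controls and 12.89, 13.38 and 13.55 with IL4 (2.46 ± 0.20, adjusted p = 0.000111). Fcgr1, the high-affinity activating receptor, fell from 22.1, 26 and 18.7 to 2.27, 4.76 and 2.35 scaled reads (-2.70 ± 0.33, adjusted p = 0.000814). The activating receptors Fcgr3 (0.37, adjusted p = 0.22) and Fcgr4 (0.86, adjusted p = 0.159), named after their values were seen, did not pass. Of the 7 measured Fc receptors 2 rose and 1 fell.

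Cd47, the signal that protects cells from being engulfed and the gene named in the study's title, rose from 185, 206 and 189 to 303, 308 and 320.2 scaled reads (0.68 ± 0.12, or 1.6-fold, adjusted p = 0.00532). All 3 IL4 libraries were above all controls, and the call held in every alternative run. Sirpa, the inhibitory receptor for CD47 on macrophages, had 387, 358 and 415 against 358, 317 and 409.7 with overlapping groups (-0.10 ± 0.14, adjusted p = 0.659). Thbs1, a secreted glycoprotein that also binds CD47, had 148, 100.1 and 354 against 0, 1.19 and 0, a ratio of 612 in favour of the controls (109 to 24210, adjusted p = 0.000111). Its fitted log2 difference was -7.89, and -8.53 without IL4 replicate 2, the only IL4 library with a read. Of the 23 measured checkpoint genes 6 rose and 5 fell, and the rises besides Cd47, Cd274, Pdcd1lg2 and Cd200r1 included the collagen receptor Lair1 (1.09 ± 0.23). Clec12a, an inhibitory lectin of myeloid cells, fell from 274, 233 and 269 to 162, 159 and 176 (-0.64 ± 0.13).

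Genes of macrophage identity fell more often than they rose, 11 against 4 of 26 (median -0.13), and the falls numbered 7 without control replicate 2. These shares were 42.3% and 15.4%, against 11.5% and 6.70% of all genes, so both directions were called more often than over all genes. Of the 26 differences 13 were positive and 13 negative, and after centring 5 genes rose and 9 fell. Lysozyme (Lyz2) had log2 levels of 11.54, 11.72 and 11.86 in the controls and 9.47, 9.19 and 9.61 with IL4 (-2.28 ± 0.15, adjusted p = 4.59e-05). The pore-forming protein gene Mpeg1 had 10.25, 10.70 and 10.44 and 7.80, 8.37 and 8.12 (-2.37 ± 0.17). For both genes the lowest control exceeded the highest IL4 library. The rises were those of Mertk, the tetraspanins Cd63 (1.57 ± 0.15) and Cd9 (1.18 ± 0.17), and the lysosomal protease Ctsd (1.21 ± 0.15). Spi1, the master factor of the lineage, had 190.1, 158 and 164 against 275, 212 and 209.6 (adjusted p = 0.0963), named after its values were seen. The 19 members with recovered reads summed to 1162 to 1350 scaled reads in the controls and 899.6 to 1043.1 with IL4.

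Most measured monocyte markers fell. Ccr2, the chemokine receptor that releases monocytes from the marrow (chr9:124101950-124113557), fell from 452, 531 and 475 to 26.1, 33.3 and 36.1 scaled reads (-3.92 ± 0.16, adjusted p = 3.83e-06). Cx3cr1, the fractalkine receptor (chr9:119901616-120069879), had 79.5, 95.1 and 90 in the controls and 0 reads in each IL4 library, at least 88.1-fold lower (adjusted p = 4.83e-06). Neither gene's groups came near each other. Of the 10 measured monocyte markers 7 fell and 1 rose, and the riser was Chil3, which is also a product of alternative activation. Without Chil3 the list summed to 3289 to 4299 scaled reads without and 510.5 to 674.2 with IL4 secretion. Of the membrane-spanning 4A family, Ms4a6c fell from 207, 283 and 241 to 49.9, 78.5 and 53.4 (-2.02 ± 0.23) and Ms4a6b from 42.3, 58.1 and 49.7 to 10.2, 13.1 and 8.63 (-2.19 ± 0.25). The part of a lower share of monocytes in the falls of Fn1, F13a1, Ccr2 and Cx3cr1 was not tested.

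Genes known from resident and erythroblastic island macrophages of the marrow were more often higher, with 8 of 26 up and 3 down (median 0.78). These were 30.8% and 11.5%, against 6.70% and 11.5% of all genes. Fabp4, a fatty acid carrier, rose from 3.02, 2 and 6.56 to 34, 84.5 and 90.3 (4.02 ± 0.47). Cd163, Igf1, Mertk and Axl are members of this list as well. The island adhesion molecules Siglec1 (18.1, 13 and 7.5 against 26.1, 80.9 and 71.4, 2.09 ± 0.47) and Vcam1 (17.1, 25 and 20.6 against 30.6, 48.8 and 63.6, 1.13 ± 0.25), named after their values were seen, passed (adjusted p = 0.0146 and 0.0138). Siglec1 lost the call without IL4 replicate 2 or 3 or control replicate 3, and Vcam1 without control replicate 1, without the variance trend and with the shared spread. Whether this and the monocyte lists differ was not tested.

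Secreted growth factors rose more often than they fell, 7 against 1 of 20 (median 0.43). These shares were 35% and 5%, against 6.70% and 11.5% of all genes. Csf1, the growth factor of macrophages themselves, rose from 10.1, 10 and 15.9 to 87.4, 88.1 and 142 scaled reads (3.08 ± 0.27, adjusted p = 0.000206), while its receptor was lower, as given above. Hgf, hepatocyte growth factor, rose from 22.1, 7.01 and 12.2 to 153, 234 and 218 (3.95 ± 0.36), and its receptor Met, named after its values were seen, fell from 39.2, 25 and 22.5 to 4.54, 0 and 1.57 (-3.98 ± 0.72). Osteopontin, Spp1, rose from 4.02, 11 and 4.68 to 30.6, 54.7 and 33.8 (2.59 ± 0.40), and Ecm1, a secreted matrix protein, from 5.03, 5 and 4.68 to 17, 15.5 and 18.1 (1.68 ± 0.23). The IL4 libraries exceeded every control for these ligands. Endothelial and stromal markers summed to 84.1 to 110.6 scaled reads in the controls and 156.6 to 219.8 with IL4, and their part in these rises was not tested. Of their 8 measured members 4 rose (Spp1, Col1a2, Pecam1 and Sparc). Col1a2 had 2 recovered reads in the controls against 16, a ratio of 8.17 (1.92 to 73.3). Sparc had 1 against 5, a ratio of 5.11 (0.572 to 242) whose interval includes 1. Sparc lost the call without IL4 replicate 2 or 3 or control replicate 2 or 3.

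Of 36 cytokine and growth factor receptors 10 fell (27.8%) and 4 rose (11.1%), against 11.5% and 6.70% of all genes. Rises numbered 2 without IL4 replicate 3 and 9 with weights from the recovered reads. Il7r, the IL7 receptor, fell from 25.2, 23 and 33.7 to 2.27, 3.57 and 3.14 (-2.98 ± 0.39), Il17ra from 324, 298 and 289 to 128, 80.9 and 126 (-1.47 ± 0.18), and Il6ra from 134, 135 and 146 to 73.7, 46.4 and 59.6 (-1.22 ± 0.17). Receptors that rose were Ifngr1, the interferon gamma receptor (143, 168 and 158 against 327, 353 and 500.0, 1.31 ± 0.17), and Csf2rb, the shared chain of the GM-CSF, IL3 and IL5 receptors (0.75 ± 0.14). Among adhesion molecules 7 of 26 rose and 4 fell. Bcam, a laminin-binding protein, had 0 reads in the controls and 19.3, 34.5 and 47.1 with IL4, at least 36.1-fold higher (adjusted p = 4.59e-05). Cdh1, E-cadherin, which IL4 is known to induce in macrophages, rose from 13.1, 11 and 1.87 to 61.3, 57.1 and 121 (3.40 ± 0.61, 2.60 without control replicate 3). Itga4, the alpha chain of the VCAM1 ligand, fell from 414, 472 and 503 to 153, 154 and 164 (-1.56 ± 0.12). Of the 14 measured chemokine and chemokine receptor genes 3 rose and 3 fell. The largest rise after Ccl24 was that of Ccl6 (264, 254 and 256 against 604, 671 and 895, 1.47 ± 0.15).

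Antigen presentation genes rose in part. Of 15 measured class II genes 4 rose and 3 fell, and the 4 that rose were Cd74, H2-Aa, H2-Ab1 and H2-Eb1, the invariant chain and class II chains. Cd74 had 242, 309 and 128 against 515, 744 and 536 scaled reads (1.47 ± 0.29) and H2-Eb1 60.4, 88.1 and 42.2 against 159, 249.9 and 135 (1.52 ± 0.30). IL4 replicate 2 was the highest in both, and none of the 4 kept the call with the spread shared with the culture libraries (adjusted p = 0.0522 for Cd74). The falls in this list numbered 0 without control replicate 1 or 2. Class I genes had 5 of 21 higher and none lower. H2-K1 rose from 344, 372 and 359 to 810.0, 957 and 572 (1.09 ± 0.18) and H2-D1 had log2 levels of 9.81, 9.67 and 9.64 and 10.41, 10.47 and 10.27 (0.67 ± 0.12), although reads of such similar genes can be split between copies. Rises of class I numbered 2 without control replicate 1 and 3 without control replicate 3.

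None of 38 measured genes of the type I interferon response rose and 9 fell (23.7%, against 11.5% of all genes, median -0.48). The falls numbered 5 after centring, 3 without IL4 replicate 3 or control replicate 3, 4 without control replicate 1 and 5 without control replicate 2. With weights from the recovered reads 15 fell and 2 rose. Ifi27l2a fell from 108, 88.1 and 114 to 6.81, 7.14 and 3.14 scaled reads (-4.14 ± 0.30, adjusted p = 7.97e-05), the antiviral enzyme Rsad2 from 40.2, 41 and 45 to 5.67, 13.1 and 9.42 (-2.17 ± 0.27) and Trim30a from 115, 109 and 112 to 57.9, 70.2 and 62.8 (-0.82 ± 0.12). For each of the 3 the groups were apart. The PYHIN family of DNA sensors, a list made after its values were seen and so a description only, had 5 of 6 lower and none higher. Pyhin1 fell from 123, 131 and 109 to 6.81, 10.7 and 11 (-3.62 ± 0.20, adjusted p = 1.91e-05), with Ifi203 (-2.70 ± 0.26), Mnda (-2.46 ± 0.43) and Ifi204 (-1.91 ± 0.21) beside it. These genes lie side by side on chromosome 1 and resemble each other, so their reads may be shared.

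Receptors for pathogens and their signalling were lower in 8 of 30 genes and higher in 2 (26.7% and 6.67%, against 11.5% and 6.70% of all genes). Tlr9, the endosomal DNA receptor, fell from 33.2, 33 and 22.5 to 5.67, 10.7 and 3.14 (-2.23 ± 0.39), and Ly86, the partner of the Toll-like protein CD180, from 54.3, 78.1 and 57.2 to 19.3, 19 and 18.8 (-1.68 ± 0.19). Falls in this list numbered 5 without control replicate 1. The genes of classical activation and the inflammasome had 6 of 29 lower (20.7%, against 11.5% of all genes) and none higher. Among the falls were the inflammasome sensor Nlrp3 (25.2, 31 and 22.5 against 5.67, 8.33 and 11, -1.62 ± 0.31), the NF-kappaB subunit Relb (-1.76 ± 0.24) and the inflammatory factor Irf5 (-1.26 ± 0.17). Cybb, the catalytic subunit of the phagocyte oxidase, fell from 1583, 1659 and 1537 to 617, 508 and 512 (-1.55 ± 0.12). Immediate early and heat shock genes, which respond quickly to stimulation or cell handling, had 10 of 30 lower and none higher, with 3 higher after centring and 4 with weights from the recovered reads. Fos fell from 477, 497 and 582 to 89.6, 69 and 124 (-2.49 ± 0.21, adjusted p = 0.000144) and Fosb from 41.2, 77.1 and 66.5 to 11.3, 8.33 and 14.1 (-2.38 ± 0.28), and the heat shock gene Hspa1b had 7.04, 24 and 15.9 against 1.13, 0 and 3.14 (-3.24 ± 0.63, -2.56 without IL4 replicate 2 and -3.85 without IL4 replicate 3). The part of cell handling in these falls was not tested.

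Genes of the ATF4 response, which cells raise when amino acids run short or proteins misfold and which restores amino acid synthesis and uptake, rose in most cases. Of 22 measured genes 18 rose and 1 fell, with a median log2 difference of 1.50, and 14 to 17 rose when each library was left out in turn. Trib3, a pseudokinase that feeds back on ATF4, had 3.02, 0 and 0.937 scaled reads in the controls and 52.2, 101 and 80.8 with IL4 (5.81 ± 0.61, 5.09 without control replicate 2 and 6.50 without control replicate 1). Atf5, a related factor, rose from 8.05, 4 and 3.75 to 89.6, 149 and 135 (4.48 ± 0.35, adjusted p = 0.000111), and Atf4 itself from 160.0, 196 and 169 to 332, 364 and 326 (0.96 ± 0.13). No control library reached the lowest IL4 library for these 3 genes.

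The enzymes and carriers of the list moved with them. Asns, asparagine synthetase, rose from 29.2, 15 and 28.1 to 89.6, 127 and 90.3 (2.10 ± 0.26), Phgdh, the entry enzyme of serine synthesis, from 23.1, 16 and 20.6 to 48.8, 73.8 and 79.3 (1.72 ± 0.31), and Psat1, the next enzyme of that route, from 34.2, 45 and 63.7 to 123, 155 and 137 (1.56 ± 0.26). The cystine carrier Slc7a11 rose from 4.02, 1 and 5.62 to 23.8, 33.3 and 25.9 (3.01 ± 0.51), and Slc3a2, the partner chain of such carriers, from 65.4, 94.1 and 56.2 to 168, 217 and 192 (1.44 ± 0.19). Sesn2, a sensor that restrains mTORC1, rose as well (1.84 ± 0.22). The member that fell was Cebpb. The 3 that did not pass were Eif4ebp1 (0.49), Cebpg (0.10) and Ppp1r15a (-0.14), the phosphatase subunit that ends the stress block on translation. Atf4, Asns, Phgdh, Psat1, Slc7a11 and the 3 that did not pass were named after their values were seen.

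The Slc7a11 promoter is shown because ATF4 with a C/EBP partner binds the composite element TGATGNAA, which is there once on each strand. The stretch (chr3:50443615-50443863, minus strand, RefSeq GRCm38.p6) runs from 250 to 2 bases before the start, with the matches TGATGCAA and TTGCATCA beginning 66 and 47 bases before it in capitals.
Slc7a11: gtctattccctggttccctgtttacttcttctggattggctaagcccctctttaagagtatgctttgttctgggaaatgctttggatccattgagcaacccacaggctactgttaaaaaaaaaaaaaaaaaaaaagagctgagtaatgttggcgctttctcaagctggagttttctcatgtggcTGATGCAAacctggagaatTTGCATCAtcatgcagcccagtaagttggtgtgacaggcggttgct
In the same windows and on both strands, TGATGNAA was in 191 of 9365 promoters (2.04%), in 2 of the 22 matched promoters of the ATF4 list (9.09%, Asns and Slc7a11) and in 3 of the 15 of the aminoacyl-tRNA synthetase list (20%, Aars, Gars and Tars).

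Aminoacyl-tRNA synthetases, which load amino acids onto tRNA, had 11 of 22 higher and none lower (median 0.66). Lars, the leucine enzyme, rose from 52.3, 54.1 and 57.2 to 145, 219 and 165 (1.66 ± 0.17), Aars, the alanine enzyme, from 65.4, 104 and 74 to 188, 217 and 179.7 (1.28 ± 0.21), and Eprs, the glutamate and proline enzyme, from 85.5, 74.1 and 77.8 to 166, 217 and 177 (1.23 ± 0.16). Cytosolic ribosomal proteins had smaller shifts, with 14 of 64 higher, none lower and a median of 0.37. Rpl13a rose from 883, 956 and 918 to 1357, 1574 and 1396 (0.65 ± 0.12) and Rpl32 from 362, 411 and 430.1 to 621, 624 and 607 (0.62 ± 0.12). That count was 23 after centring and with weights from the recovered reads, 5 without the variance trend, 3 without control replicate 1 and 5 to 8 without IL4 replicate 2 or 3 or control replicate 2 or 3, and ribosomal protein genes share reads with many pseudogenes. Protein folding genes of the endoplasmic reticulum had 7 of 47 higher and 1 lower, among them the disulfide isomerase P4hb (358, 399 and 349 against 588, 709 and 698, 0.85 ± 0.13) and the stress factor Xbp1 (0.83 ± 0.15), with rises in 15 after centring and in 3 without control replicate 1 or 3. Of 37 proteasome subunits none passed in limma as fitted, 3 had an unadjusted p below 0.05 and 2 rose after centring. Of 68 genes of the citrate cycle and respiratory chain 1 rose and 4 fell, and of 76 mitochondrial ribosomal proteins 2 rose and 3 fell.

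**Figure D4:**
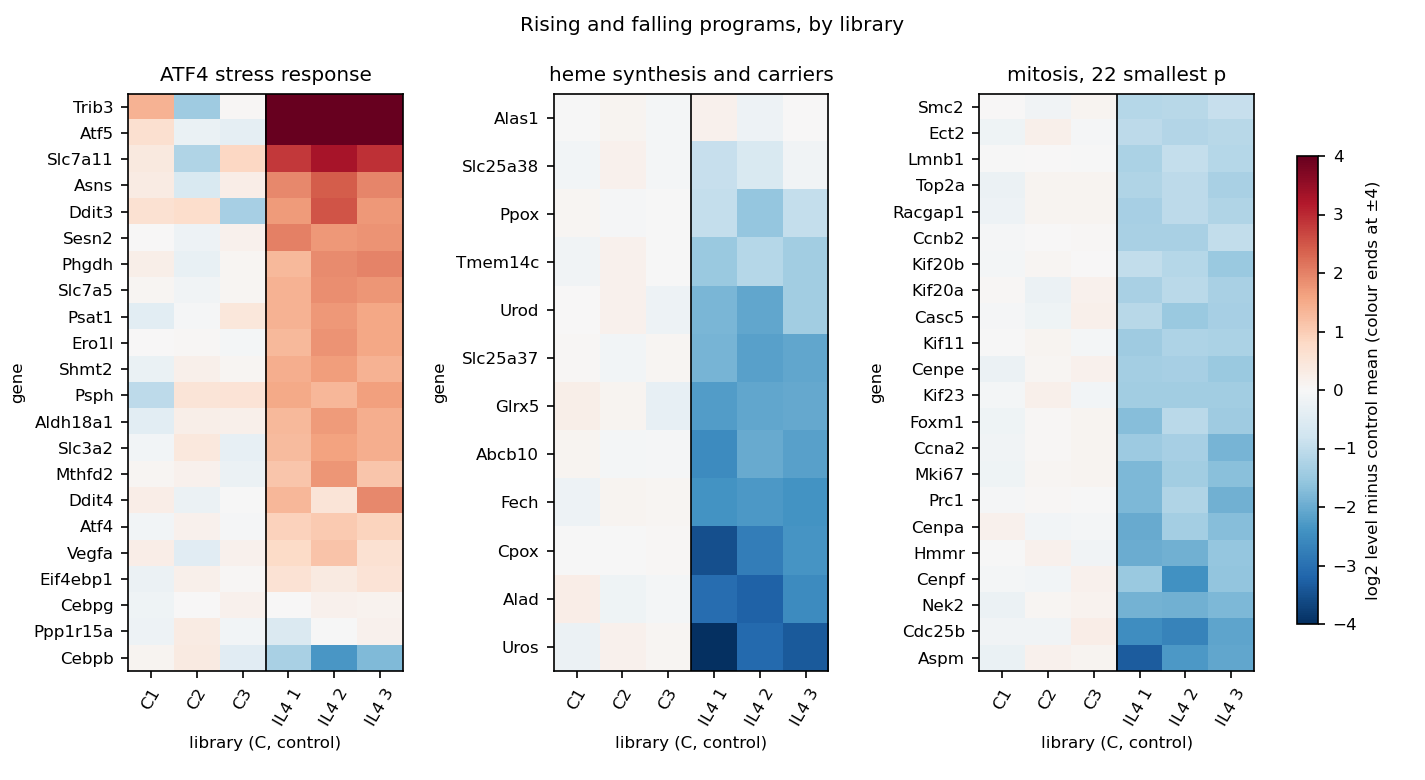
Log2 level of each library minus the control mean (colour scale ends at 4 in both directions) for the 22 measured genes of the ATF4 response, 12 of heme synthesis and the 22 mitosis genes with the smallest p, with the 3 control libraries left and the 3 IL4 libraries right of the line in each panel. The heme synthesis genes that passed and the mitosis genes shown are lower in all 3 IL4 libraries, and Trib3 and Atf5 are off the top of the scale.

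Genes of cell division were lower together. Of 82 measured mitosis and kinetochore genes 73 fell and none rose, with a median log2 difference of -1.19, and 58 to 68 fell when each library was left out in turn. Mki67, the proliferation antigen, fell from 1233, 1452 and 1487 to 400.5, 534 and 432 scaled reads (-1.62 ± 0.15, adjusted p = 0.000217), cyclin A2 (Ccna2) from 225, 256 and 266 to 89.6, 98.8 and 67.5 (-1.56 ± 0.16) and the centromere histone Cenpa from 101, 84.1 and 86.2 to 21.6, 34.5 and 27.5 (-1.70 ± 0.17). The highest IL4 library was below the lowest control for each. With the spread shared with the culture libraries 16 of the mitosis genes fell, against 73 with the marrow spread alone. The largest fall of the list was that of Aspm, a spindle pole protein named after its values were seen (98.6, 134 and 129 against 11.3, 23.8 and 28.3, -2.57 ± 0.30). Of 55 DNA replication genes 33 fell and none rose (median -0.66), 27 after centring and 10 with the shared spread. Fen1, the flap endonuclease, fell from 102, 111 and 119 to 53.3, 41.6 and 42.4 (-1.27 ± 0.15), and the primase subunit Prim2 from 43.3, 39 and 46.9 to 12.5, 20.2 and 19.6 (-1.30 ± 0.19).

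The promoters of Ccnb2 (cyclin B2) and Mki67 are shown because mitotic genes are known for CCAAT boxes, bound by NF-Y, and the cell cycle homology region with the core TTTGAA, bound by the DREAM and MuvB complexes. Both stretches cover the 250 bases before the start (Ccnb2 chr9:70421555-70421804 and Mki67 chr7:135716380-135716629, both minus strand, RefSeq GRCm38.p6), and capitals mark CCAAT or its complement ATTGG and TTTGAA.
Ccnb2: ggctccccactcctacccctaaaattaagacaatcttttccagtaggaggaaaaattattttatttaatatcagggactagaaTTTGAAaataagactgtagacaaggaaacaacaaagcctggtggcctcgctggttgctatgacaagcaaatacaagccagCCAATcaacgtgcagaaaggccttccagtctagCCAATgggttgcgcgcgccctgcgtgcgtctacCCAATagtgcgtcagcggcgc
Mki67: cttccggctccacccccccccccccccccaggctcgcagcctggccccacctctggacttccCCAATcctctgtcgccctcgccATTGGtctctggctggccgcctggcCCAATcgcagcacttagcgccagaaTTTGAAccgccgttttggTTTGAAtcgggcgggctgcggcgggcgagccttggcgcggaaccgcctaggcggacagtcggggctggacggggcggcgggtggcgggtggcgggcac
Ccnb2 has CCAAT 87, 54 and 21 bases before the start and TTTGAA 167 before it. Mki67 has CCAAT boxes 188, 166 and 141 bases before the start, the middle of these as ATTGG, and TTTGAA 116 and 98 bases before it. Searched on both strands of the 250 bases before the start, CCAAT was in 51 of 71 matched promoters of the mitosis list (71.8%) against 35.3% of all 9365, and TTTGAA in 27 (38%) against 10.4%. Both were in 24 (33.8%) against 3.96% of all. In the DNA replication list CCAAT was in 58% and TTTGAA in 12% of promoters. These are descriptions of the letters. Ccnb2, named after its values were seen, fell from 138, 143 and 148 to 57.9, 58.3 and 71.4 (-1.19 ± 0.16), a call lost with the shared spread (adjusted p = 0.21).

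Cell cycle inhibitors and p53 targets were mixed, with 8 of 35 higher and 7 lower. Cdkn1a, the inhibitor p21, rose from 8.05, 15 and 15.9 to 63.5, 67.8 and 41.6 (2.13 ± 0.29, adjusted p = 0.00131), and Bbc3, the apoptosis gene PUMA, from 6.04, 5 and 4.68 to 18.2, 19 and 16.5 (1.69 ± 0.30). Cdkn2c, the inhibitor p18, fell from 29.2, 37 and 16.9 to 2.27, 4.76 and 4.71 (-2.65 ± 0.36). Rises numbered 4 without IL4 replicate 3 or control replicate 2, and falls 3 without control replicate 1 or 2. Progenitor and leukemic blast markers, 2 of 12 of which rose and 3 fell, summed to 562.6 to 613.7 scaled reads in the controls and 616.4 to 663.7 with IL4. Kit, Meis1 and Hoxa9 were not analysed here, and the part of leukemic cells in the division genes was not tested.

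Heme synthesis genes were lower at most steps measured. This list was made after its values were seen and is a description: 11 of 13 genes fell and none rose, with a median log2 difference of -2.12. Fech, which inserts iron to complete heme, fell from 125, 155 and 154 to 27.2, 28.6 and 27.5 scaled reads (-2.35 ± 0.15, adjusted p = 4.59e-05), and the mitochondrial iron carrier Slc25a37 from 259.6, 232 and 268 to 69.2, 55.9 and 59.6 (-2.03 ± 0.13). In these genes the IL4 libraries were close to each other and below every control. Uros (-3.63 ± 0.43), Alad (-2.93 ± 0.29) and Cpox (-2.88 ± 0.25) were the largest falls of the route. Alas1, the enzyme of the first step outside the red cell lineage, had a log2 difference of -0.01 (adjusted p = 0.976) and Slc25a38 -0.55 (adjusted p = 0.114). Uros, Alad, Alas1 and Slc25a38 were named after their values were seen.

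Genes of red cells fell with heme synthesis. Tfrc, through which cells take in iron, fell from 436, 437 and 468 to 96.4, 89.2 and 117 (-2.15 ± 0.14), Car2, carbonic anhydrase, from 481, 484 and 487 to 22.7, 47.6 and 49.4 (-3.66 ± 0.27), and Aqp1, a water channel of red cells, from 353, 322 and 392 to 13.6, 11.9 and 6.28 (-5.07 ± 0.25, adjusted p = 1.12e-05). The 4 measured erythroid markers (Tfrc, Car2, Tmcc2 and Bpgm) summed to 963.8 to 991.4 scaled reads in the controls and 128.2 to 186.0 with IL4, and 3 of them fell. Bpgm had 19.1, 20 and 7.5 against 6.81, 1.19 and 13.3 and did not pass. The part of red cell precursors attached to or sorted with the macrophages in the fall of heme synthesis was not tested. Alas2, Klf1 and Hba-a1 were not analysed here. In the wider list of iron and heme handling 3 of 17 rose and 5 fell. Blvrb, a biliverdin reductase, fell from 102, 92.1 and 89 to 12.5, 21.4 and 22.8 (-2.33 ± 0.26), while the ferritin chain Ftl1 had log2 levels of 8.90, 8.92 and 8.73 and 9.44, 9.75 and 9.60 (0.74 ± 0.13). Slc40a1, the iron exporter ferroportin, named after its values were seen, had 154, 95.1 and 142 against 127, 138 and 137 (adjusted p = 0.832).

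Of 37 genes of sterol and fatty acid synthesis 13 fell and 1 rose (median -0.83), with 8 falls without control replicate 2 or 3. Srebf2, the master factor of cholesterol synthesis, fell from 141, 131 and 161 to 45.4, 78.5 and 62 (-1.24 ± 0.20, adjusted p = 0.0031), and the sterol oxidase Msmo1 from 30.2, 38 and 25.3 to 14.7, 13.1 and 14.9 (-1.08 ± 0.17). The riser was the fatty acid synthase Fasn (0.92 ± 0.19), a call lost with the shared spread (adjusted p = 0.102). In the list of lipid uptake, storage and efflux 12 of 48 rose and 10 fell. Plin2, which coats lipid droplets, rose from 97.6, 116 and 125 to 335, 363 and 363 (1.65 ± 0.13, adjusted p = 0.000111), and Angptl4, a lipase inhibitor, from 1.01, 2 and 1.87 to 10.2, 21.4 and 14.1 (2.87 ± 0.31). Falls in that list numbered 6 without control replicate 2.

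Glycolysis had 7 of 31 genes higher and 3 lower (median 0.33), with 11 higher after centring and 4 without IL4 replicate 3, control replicate 1 or control replicate 3. Hk3, a hexokinase of myeloid cells, rose from 350.1, 325 and 318 to 851, 1172 and 978 (1.58 ± 0.14, adjusted p = 0.00021), and the phosphofructokinase Pfkp from 61.4, 73.1 and 67.5 to 139.5, 169 and 122 (1.08 ± 0.17), while the muscle form Pfkm fell from 28.2, 25 and 18.7 to 6.81, 7.14 and 11.8 (-1.45 ± 0.28). Ldha, which makes lactate, rose from 343, 329 and 296 to 498, 462 and 526 (0.62 ± 0.12). Lysosomal proteases changed by member, with 4 of 18 higher and 4 lower, or 2 lower without control replicate 1 or 2. Ctsl, cathepsin L, rose from 19.1, 24 and 20.6 to 51.1, 88.1 and 111 (1.88 ± 0.27), and Cst7, an inhibitor of cathepsin C and other cysteine proteases, from 8.05, 19 and 12.2 to 91.9, 139 and 99.7 (3.09 ± 0.29). Ctsh, cathepsin H, fell from 162, 206 and 149 to 59, 70.2 and 68.3 (-1.37 ± 0.16). The proton pump subunit Atp6v0d2, needed for the fusion of macrophages and osteoclasts, had 0, 1 and 0 against 11.3, 32.1 and 47.9, a ratio of 100.1 (17.6 to 3994, adjusted p = 0.000564). Of the 59 lysosomal hydrolases and membrane proteins, Atp6v0d2 included, 7 rose (11.9%) and 8 fell (13.6%), against 6.70% and 11.5% of all genes. When each library was left out in turn, 3 to 4 rose.

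Genes with small p-values outside these groups included the survival kinase Pim3, a target of STAT proteins (10.1, 16 and 14.1 against 107, 144 and 125, 3.19 ± 0.24, adjusted p = 0.000103), and the autophagy adaptor Sqstm1 (99.6, 112 and 111 against 332, 357 and 294, 1.60 ± 0.13). Myo10, a motor protein of filopodia, rose from 4.02, 4 and 8.43 to 56.7, 109 and 41.6 (3.50 ± 0.39). Genes named by size or p had to be without overlap between the groups, so that separation is not a further result. Slc17a7, a vesicular glutamate transporter, had 83.5, 25 and 62.8 scaled reads in the controls and 0 in each IL4 library, at least 57.1-fold lower (adjusted p = 5.85e-05). Cd72 (46.3, 46 and 47.8 against 4.54, 8.33 and 3.92, -3.02 ± 0.29) and Blnk (29.2, 25 and 23.4 against 2.27, 2.38 and 5.49, -2.84 ± 0.29), both of B cell receptor signalling and also expressed in myeloid cells, fell, and 5 of 8 measured B cell and plasma cell markers fell and 2 rose. That list's summed level was 529.2 to 541.6 scaled reads in the controls and 561.7 to 631.8 with IL4. Cd79a and Ms4a1 were not analysed here.

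The marrow response was set beside the response of cultured macrophages by testing the difference of the 2 log2 differences in a model of all 14 libraries. The tables were normalized separately, so only differences within a table entered. In culture 754 genes rose (7.96%) and 3084 fell (32.6%). The marrow response was higher than the culture response for 1575 genes (16.6%) and lower for 611 (6.45%), and after centring for 900 and 889. C1q and Mertk rose in marrow and fell in culture: C1qb by 3.44 against -1.40 (difference 4.84 ± 0.38, adjusted p = 2.44e-06), C1qa by 2.77 against -2.28, C1qc by 3.49 against -1.45, and Mertk by 3.90 against -1.47 (difference 5.37 ± 0.75, adjusted p = 0.000199, 6.33 without marrow control replicate 1). Hpgds, a prostaglandin synthase, had the same pattern (3.22 against -4.21, difference 7.42 ± 0.54), with 0, 0 and 0 scaled reads in the marrow controls and 2.27, 5.95 and 4.71 with IL4, at least 4.43-fold, so its fitted marrow change and difference depend on the floor of the log scale, and its rise was not called without IL4 replicate 2 or any 1 of the marrow controls. Il4ra rose in marrow and fell in culture (1.07 against -1.13, difference 2.21 ± 0.22, adjusted p = 1.51e-05). Mrc1 rose in marrow and had 0.14 in culture (adjusted p = 0.648 there), a difference of 3.29 ± 0.47 (adjusted p = 0.000218).

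Other genes fell in marrow and rose in culture or rose by less in marrow. Fn1 had -4.20 in marrow against 3.09 in culture (difference -7.30 ± 0.50, adjusted p = 1.36e-06), and Irf4 -1.54 against 3.32 (difference -4.87 ± 0.35). Chil3, abundant in the marrow controls, rose by 2.95 in marrow against 12.58 in culture, and Pdcd1lg2 by 2.22 against 7.64. These culture changes were not checked against the floor of the log scale, so the size of the differences is uncertain. Arg1 and Retnla were also below the culture response (differences -5.51 ± 0.93 and -1.98 ± 0.49), but both had 3 or fewer reads in the marrow controls, so these values depend on the floor of the log scale. The differences for Cd47 (0.33 ± 0.15, adjusted p = 0.14), Stat6 (0.40 ± 0.16, adjusted p = 0.0964) and Csf1r (-0.21 ± 0.32, adjusted p = 0.673) did not pass. Sirpa fell in culture (-0.94) and its difference passed (0.84 ± 0.15, adjusted p = 0.00145), as did that of Emr1 (0.81 against -1.17, difference 1.98 ± 0.40, adjusted p = 0.00266).

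**Figure D5:**
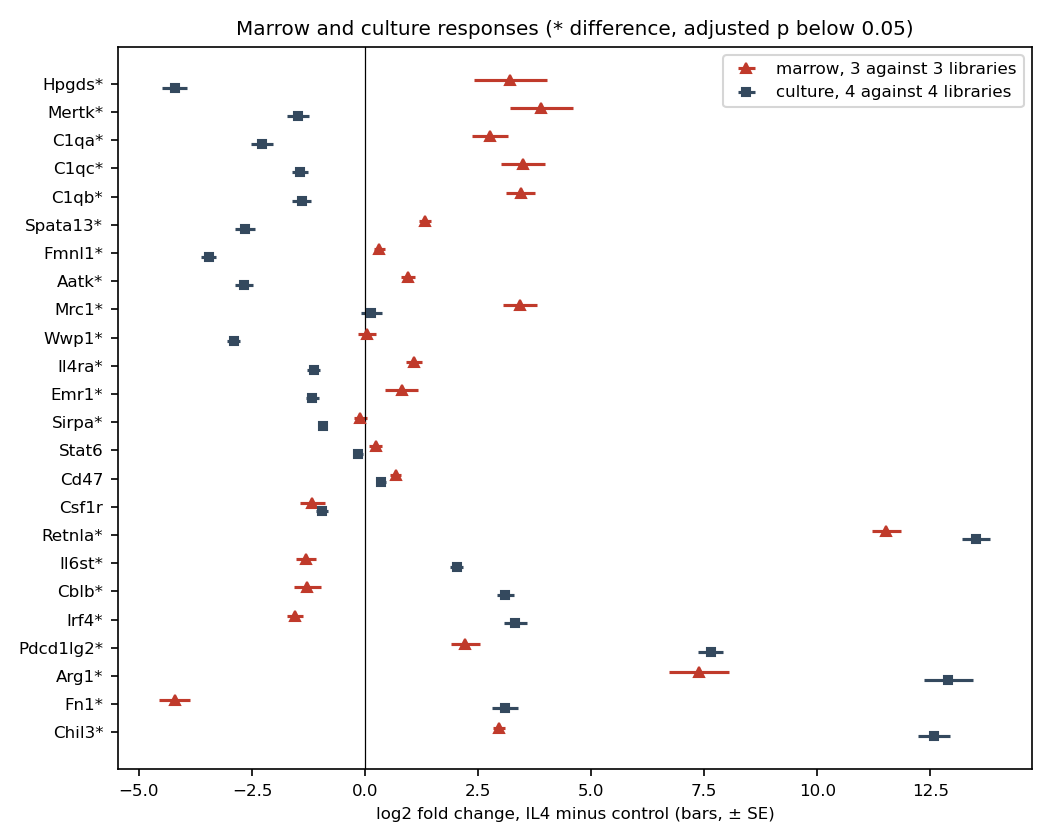
Log2 difference, IL4 minus control, with its standard error in marrow (triangles, 3 against 3 libraries) and in culture (squares, 4 against 4), for the genes whose difference is named, with a star where the difference had an adjusted p below 0.05. C1qa, C1qb, C1qc, Mertk, Hpgds and Il4ra lie on opposite sides of 0 with marrow above culture, and Fn1, Irf4, Cblb and Il6st with culture above marrow.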

How the data were processed

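RNA came from RNeasy Micro columns and was made into TruSeq RNA v2 libraries, per the labels' protocols. TopHat2 2.0.13, bcl2fastq and the build mm10 are named in the submitters' processing notes. For the counter, gene filter, normalization and use of strand, nothing is stated in the sources used here. The authors deposited log2 levels of 9474 genes per library, a linear ratio (fold change) and p-value and q-value columns; only the log2 levels were used, and 0 other columns of per-sample values were left out. Within 0.000986, each log2 level is that of an integer read number with 0.5 added, moved by a gene constant and a library constant, and this gave the recovered reads. No pseudocount was added.

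Limma 3.58.1 in R 4.3.3 with a variance trend was fitted to the 6 libraries (residual degrees of freedom 4), two-sided, with Benjamini-Hochberg adjustment over all 9474 genes; every marrow adjusted p and standard error is from it. The culture values came from the same fit to the 8 culture libraries, and the difference from a group means model of all 14. The fit was tested on simulated data. Python 3.11.15 (pandas 2.3.3, numpy 2.4.6, scipy 1.17.1, matplotlib 3.10.9) did the rest. Positions are from GENCODE M21 (GRCm38.p6, the build mm10), and promoters from RefSeq, matched for 7322 genes.

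The comparison, the 60 gene lists and the alternatives were chosen with earlier results of these data known, and 2 lists (heme synthesis, PYHIN) were made after values were seen. No set was tested. Named genes were the 15 largest rises and falls among genes past the threshold without overlap, with mean level above the 25th percentile and without predicted genes; the 15 with the smallest p per direction; up to 4 members per list and direction; a set always named (Cd47, Sirpa, Emr1, Csf1r, Mertk, C1q, Arg1, Retnla, Chil3, Mrc1, Il4, Il4ra and Stat6); and for the difference the 6 with the smallest p per direction. That gave 286 genes. Alternatives were centring, quantile normalization, a filter at the 25th percentile, no trend, a robust variance model, a spread shared with the culture libraries, weights from recovered reads, a replicate block and leaving out each library. A few genes that the rule names are not reported here.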

Additional observations from a re-analysis of the deposited data

Results flagged for a closer look

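The response to IL4 differed between marrow and culture by a test of the difference itself for 21 of the named genes. The differences (marrow minus culture, log2) were positive for Hpgds (7.42), Mertk (5.37), C1qa (5.05), C1qc (4.93), C1qb (4.84), Spata13 (3.98), Fmnl1 (3.78), Aatk (3.62), Mrc1 (3.29), Wwp1 (2.94), Il4ra (2.21), Emr1 (1.98) and Sirpa (0.84). The values of Hpgds, Retnla, Arg1 and Mertk are fitted ones: with 0, 0, 3 and 3 recovered reads in the marrow controls they depend on the floor of the log scale, and their size is not defined. The culture changes were not checked against that floor. Differences were negative for Chil3 (-9.63), Fn1 (-7.30), Arg1 (-5.51), Pdcd1lg2 (-5.42), Irf4 (-4.87), Cblb (-4.38), Il6st (-3.33) and Retnla (-1.98). Fmnl1, a formin that shapes actin in macrophages, and Wwp1, a ubiquitin ligase, fell in culture (-3.46 and -2.91) and did not pass in marrow (0.31 and 0.04). Cblb, a ubiquitin ligase that restrains receptor signalling, and Il6st, the shared chain of the IL6 receptor family, rose in culture (3.10 and 2.02) and fell in marrow (-1.28 and -1.30). All 21 differences also passed after centring.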

How the results depend on the processing

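Rises numbered 397 to 534 and falls 678 to 963 when each marrow library was left out in turn, with 397 rises without IL4 replicate 3, 688 falls without control replicate 2 and 678 without control replicate 3. The differences from culture numbered 1266 to 1933 higher and 520 to 656 lower in marrow over the libraries left out, and 900 higher after centring against 1575 without it. Centring gave 895 rises and 845 falls, quantile normalization 806 and 887, the filter 566 and 928, no trend 454 and 853, the robust model 642 and 1088, the shared spread 600 and 883, and weights from recovered reads 895 and 1417. No named gene past the threshold in either fit changed sign, while the balance of rises and falls turned with centring, also among solute carriers (17 and 22 became 24 and 16). Of the 286 named genes, 15 lost the call after centring, 14 after quantile normalization, 49 without the trend, 44 with the shared spread, and 31 to 52 without a library. Whether the replicate numbers in the labels pair the libraries is not known. Deviations of same-numbered libraries correlated at 0.026, 0.059 and 0.035, and those of the others at -0.044 to 0.012. Correlations this small, in libraries this shallow, cannot decide it. With the replicate block there were 672 rises and 1092 falls in marrow, and 1356 differences higher and 569 lower in marrow; each library correlated best with its own number, a hint from the data and not the design. A pseudocount alternative was not run, as the values are already log2. At medians of 26 to 39 reads per gene, changes of genes with few reads are imprecise, and 0.775% to 1.69% of genes had 0 reads in a library.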

Other observations

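Of all 160 measured solute carriers, those described above included, 17 rose and 22 fell (24 and 16 after centring, and 13 lower without control replicate 3). The shares as fitted, 10.6% and 13.8%, stand against 6.70% and 11.5% of all genes. The amino acid carriers Slc38a6 (5.03, 4 and 3.75 against 14.7, 20.2 and 36.1 scaled reads, 2.26 ± 0.32) and Slc7a8 (6.04, 8.01 and 7.5 against 30.6, 22.6 and 44.7, 2.07 ± 0.33) rose, and the metal carriers Slc11a2 (33.2, 32 and 25.3 against 3.4, 4.76 and 14.1, -2.17 ± 0.47) and Slc39a8 (7.04, 12 and 14.1 against 1.13, 2.38 and 0.785, -2.62 ± 0.41) fell. Slc7a8 and Slc39a8 were named after their values were seen. Of 35 genes of the extracellular matrix and its proteolysis 7 rose and 4 fell. Serpinf1, a secreted inhibitor of angiogenesis, rose from 2.01, 2 and 3.75 to 19.3, 32.1 and 15.7 (2.87 ± 0.32), and Anpep, the aminopeptidase CD13, had 0, 0 and 0.937 against 7.94, 17.9 and 14.9, a ratio of 41.9 (7.11 to 1694). Of 23 genes of TGF-beta and BMP signalling none rose and 4 fell (2 without IL4 replicate 3), among them the receptor Bmpr2 (47.3, 56.1 and 45 against 13.6, 15.5 and 15.7, -1.69 ± 0.25). Of 43 Rab GTPases 2 rose and none fell, with 5 rises after centring and 5 rises and 2 falls with weights from the recovered reads, and of 194 zinc finger genes named Zfp 6 rose and 9 fell (2 to 4 and 3 to 8 over the libraries left out).

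Megakaryocyte and platelet markers summed to 788.8 to 1076.7 scaled reads in the controls and 927.0 to 987.4 with IL4, with overlapping groups. Dendritic cell markers summed to 429.6 to 505.5 and 430.0 to 704.5, also overlapping, and of their 6 measured members 1 rose (Mgl2) and 2 fell (Irf8 and Tcf4, the latter not without IL4 replicate 3 or control replicate 2 or 3). The 3 measured T and NK cell markers (Lat, Cd28 and Il7r) summed to 32.0 to 38.4 in the controls and 11.3 to 23.8 with IL4. They did not move together: Il7r fell, as given above, 1 rose and Cd28 did not pass (-1.16, adjusted p = 0.395). The rise was lost without IL4 replicate 1, 2 or 3 or control replicate 2 or 3.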
